A study of Rattus norvegicus with 70 samples.

Results

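The 9 genes described here are those by which thyroid follicular cells make thyroid hormone: Tg, Tshr, Slc5a5, Duox2, Pax8, Nkx2-1, Foxe1, Iyd and Slc26a4. They were taken by gene symbol, and each is 1 of the 17048 rows of the count table. The rats were Sprague-Dawley, an outbred laboratory strain, and their organs were taken at postnatal day 63. Dams received vehicle, bisphenol A (BPA) at 500 mg/kg/day, or a mixture of bisphenols (Mix) of the same summed dose by mouth from day 6 of gestation until day 6 of lactation; the mixture held 160 mg/kg/day of BPA, 160 of bisphenol F and 180 of bisphenol S. Their pups were then dosed directly with the same substance at 250 mg/kg/day from postnatal day 7 until day 63. Counts of messenger RNA, read at the 3′ end, were made in thyroid, liver, kidney and gonad of 18 rats, giving 70 libraries, of which 18 are thyroid: 3 rats of each sex in each of vehicle, BPA and Mix. Every group is 1 dose, and which rats were littermates is not given in the sources used here, so p-values measure the spread between rats only.

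A thyroid follicle is a shell of epithelial cells around a store of thyroglobulin, the protein on which thyroid hormone is built. Iodide enters the cell through the sodium/iodide symporter (Slc5a5), passes to the lumen through apical carriers of which pendrin (Slc26a4) is a known one, and is coupled to thyroglobulin (Tg) with hydrogen peroxide from the dual oxidase Duox2; the deiodinase Iyd recovers iodide from unused iodotyrosines. The thyrotropin receptor (Tshr) drives this programme through cyclic AMP, and the transcription factors Pax8, Nkx2-1 and Foxe1 together mark the follicular lineage.

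The 250 bases before the transcription start were at hand, from RefSeq (build GRCr8), for 6 of the 9 genes: Iyd, Pax8, Duox2, Slc26a4, Nkx2-1 and Slc5a5. Letters of 3 motifs were searched on both strands: CTCAAG, the core of NKX2-1 sites; GTAAACA, a forkhead sequence of the family of Foxe1; and TGACGTCA, the full cyclic AMP response element, which reads alike on both strands. Of the 33469 promoters in the table, 13.3% held CTCAAG, 3.21% GTAAACA and 1.59% TGACGTCA, and the motifs do not overlap each other. Among the 6 genes, CTCAAG stood once, in Nkx2-1 itself, 177 bases before the start; the other two motifs were not in these windows. The 3 promoters below are shown because their genes took 3 different patterns over the organs: Nkx2-1 was a thyroid gene, Iyd was shared with kidney and liver, and Slc26a4 was a kidney gene. Capitals mark CTCAAG. The windows are chr6:79734868-79735117 on the minus strand for Nkx2-1, chr1:42409888-42410137 on the plus strand for Iyd and chr6:53873217-53873466 on the minus strand for Slc26a4.
Nkx2-1: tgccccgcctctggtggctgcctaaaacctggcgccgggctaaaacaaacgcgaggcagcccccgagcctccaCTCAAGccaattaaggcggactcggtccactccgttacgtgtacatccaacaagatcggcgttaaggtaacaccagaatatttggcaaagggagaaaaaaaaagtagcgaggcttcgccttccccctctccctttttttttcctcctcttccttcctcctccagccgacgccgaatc
Iyd: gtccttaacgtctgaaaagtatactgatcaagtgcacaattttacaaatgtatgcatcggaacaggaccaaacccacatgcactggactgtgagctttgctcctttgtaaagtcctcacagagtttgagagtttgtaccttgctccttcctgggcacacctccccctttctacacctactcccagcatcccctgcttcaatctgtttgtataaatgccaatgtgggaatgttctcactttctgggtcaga
Slc26a4: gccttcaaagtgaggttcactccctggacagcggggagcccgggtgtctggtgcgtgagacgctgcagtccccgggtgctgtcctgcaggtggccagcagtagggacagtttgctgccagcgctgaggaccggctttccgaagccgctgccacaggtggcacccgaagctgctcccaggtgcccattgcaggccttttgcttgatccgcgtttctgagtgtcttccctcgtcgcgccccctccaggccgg

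Total counts ran from 6323055 to 9755716 per thyroid library and from 4803807 to 10929957 over all libraries. Levels in the thyroid are given as CPM, counts per 1000000, scaled with edgeR's TMM factors over the 18 thyroid libraries (TMM-scaled CPM); levels across organs are plain CPM of the library total. The dissected tissue held other cells in every library: 3 parathyroid markers summed to 12868 to 82700 CPM, with Pth at the top, and 10 C cell markers to 10063 to 29637 CPM, with Calca at the top. A few libraries stood apart. Male BPA replicate 1 carried 17738 CPM of 6 testis transcripts, and female vehicle replicates 1 and 2 carried 4265 and 2294 CPM of them and 3911 and 1319 CPM of 6 liver transcripts, of which male vehicle replicate 3 had 1363 CPM. Female vehicle replicates 2 and 3 had 3054 and 7034 CPM of 9 fat markers, against 524 to 1821 CPM in the other 16 thyroid libraries. Ribosomal RNA rows took 0.66% to 23.7% of the female thyroid counts, highest in Mix, and 1.07% to 5.62% of the male. Values without each of these libraries stand beside the results that move with them.

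Tg, Foxe1, Nkx2-1, Slc5a5, Duox2 and Tshr were thyroid genes among the 5 organs. Tg, the hormone precursor, was between 25932 and 104841 CPM in the 18 thyroid libraries and at most 46.7 CPM in the 52 others. Foxe1 was between 499 and 1165 CPM in thyroid and at most 2.77 CPM elsewhere, and Nkx2-1 between 122 and 349 CPM against at most 0.40. Slc5a5, the iodide pump, spanned 17.2 to 450.3 CPM in thyroid and reached 2.64 CPM elsewhere, in a kidney library. Duox2 was between 25.3 and 104.9 CPM in thyroid and at most 3.37 CPM elsewhere, in an ovary library. Tshr was between 80.7 and 219.9 CPM in thyroid, and kidney came next, with 0.98 to 12.6 CPM. No thyroid library of these genes overlapped any library of another organ.

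Pax8, a transcription factor that also builds the kidney, was at 213 to 741 CPM in thyroid and 55.0 to 175.3 CPM in kidney, and at most 4.17 CPM in liver, testis and ovary. Iyd was at 213 to 468 CPM in thyroid, 64.5 to 147.1 CPM in kidney and 24.7 to 79.2 CPM in liver, and at most 0.77 CPM in the gonads. Its kidney and liver ranges overlap, so the order of those 2 organs is not set by these values over all libraries. In vehicle rats Iyd was higher in thyroid than in kidney by 1.65 on the log2 scale in males (SE 0.33, n = 3 each, adjusted p = 0.00051) and by 2.49 in females (SE 0.40, n = 3 and 2, adjusted p = 6.8e-05), by edgeR's quasi-likelihood test. For Pax8 the same differences were 1.91 (SE 0.33, adjusted p = 0.00015) and 1.78 (SE 0.39, adjusted p = 0.0012). Tshr exceeded kidney by 4.48 in males (SE 0.59) and by 4.32 in females (SE 0.71).

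Slc26a4 went the other way. It was at least 34.4 CPM in each of the 16 kidney libraries, with a median of 79.7, and in the 18 thyroid libraries it had 12 counts in all, with 0 counts in 13 of them and at most 0.79 CPM. The 3 male vehicle thyroids held 0 counts among 24851619, where 3 counts over the group would be 0.12 CPM. The summed male vehicle kidneys stood at 93.3 CPM, which is 773-fold above that floor. By the exact Poisson 95% bound for 0 counts, the male thyroid level was at least 629-fold lower than kidney. The 3 female vehicle thyroids held 1 count, a ratio of 2686-fold below kidney with an exact Poisson 95% interval of 482-fold to 106076-fold, which covers counting error only. Slc26a4 did not pass the filter on low counts in thyroid, so 8 of the 9 genes were tested there.

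In the fit across all genes, 8 of the 9 genes were higher in vehicle thyroid than in every other organ of the same sex. This is a description, since the genes were chosen as follicular cell genes and those near 0 elsewhere passed the low-count filter through the thyroid alone. The background is wide: of 13342 genes tested, 22.9% were higher in male thyroid than in liver, 16.9% than in kidney and 30.7% than in testis, and 30.0%, 20.5% and 21.6% were higher in female thyroid than in liver, kidney and ovary. Slc26a4 was lower than in kidney in both sexes and did not pass against liver, testis or ovary. Sla, a gene that the annotation places over Tg, was at 0 to 25.7 CPM in thyroid; whether the counting used strand is not given in the sources used here.

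**Figure D1:**
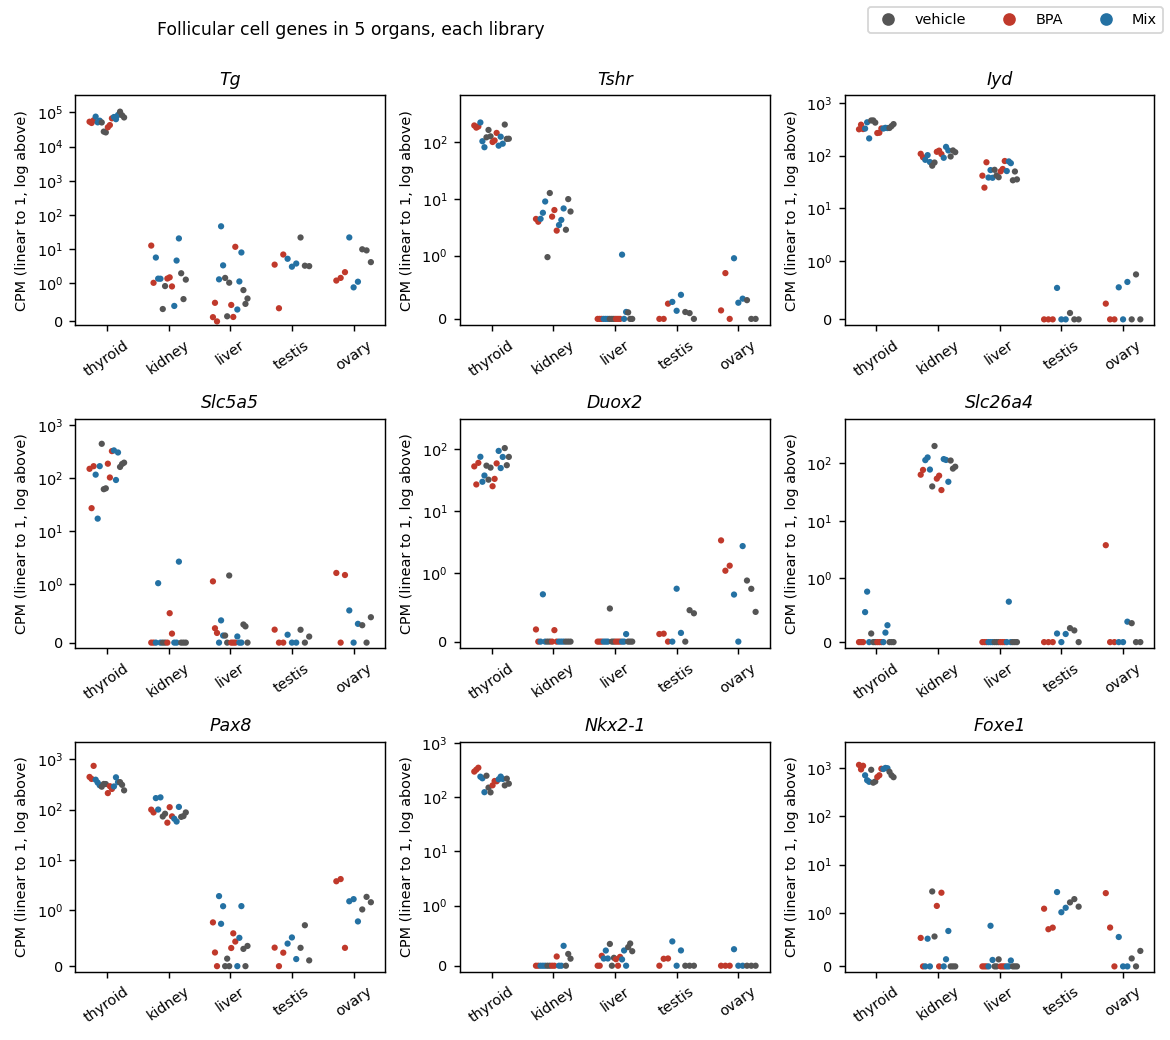
CPM of the 9 genes in every library of 5 organs; 1 point is 1 library, coloured by treatment, on an axis that is linear to 1 and logarithmic above. The thyroid stands above every other organ for 8 genes, Pax8 and Iyd are also seen in kidney, and Slc26a4 is at 34.4 CPM or more in kidney alone.

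Within the thyroid the genes differed in how tightly they were held. Iyd varied least, from 252 to 468 TMM-scaled CPM over the 18 libraries, with a coefficient of variation within groups of 13.6%, and Foxe1 and Nkx2-1 followed with 14.7% and 16.6%. Tg spanned 27392 to 102759 TMM-scaled CPM, with 20.1% within groups. Slc5a5 varied most, from 18.1 in female Mix replicate 2 to 418.9 TMM-scaled CPM in female vehicle replicate 1, a 23.1-fold range and 68.2% within groups. The other genes had ranges of 2.56-fold (Tshr) to 4.04-fold (Duox2).

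**Figure D2:**
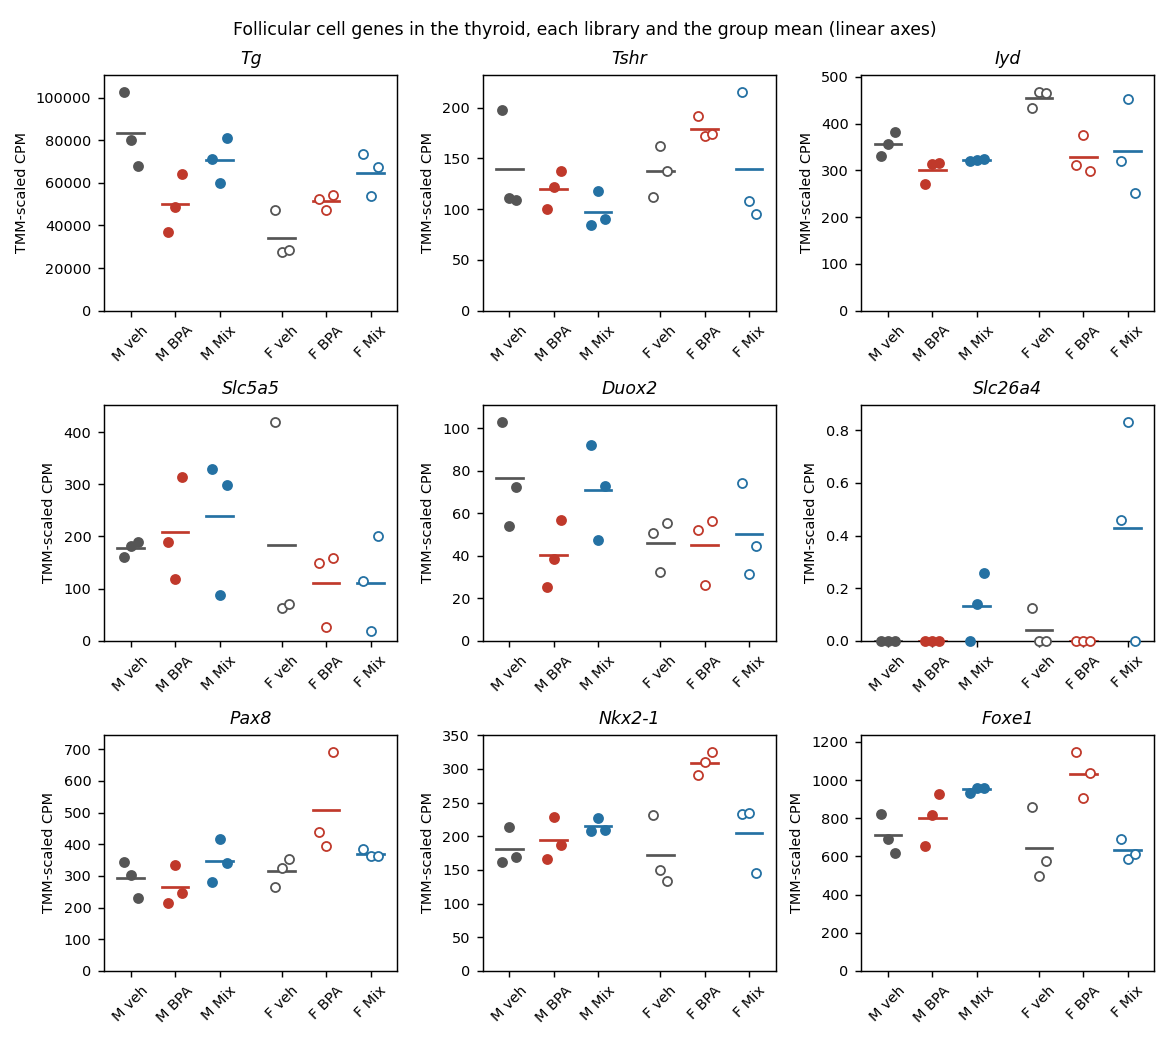
TMM-scaled CPM of each gene in the 18 thyroid libraries on linear axes from 0; filled points are males, open points females, and the line is the mean of 3 libraries. Male BPA lies below male vehicle for Tg and female BPA above female vehicle, female BPA is high for Nkx2-1 and Foxe1, and Slc26a4 stays under 0.84.

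BPA was set against vehicle first in males. Tg was 102759, 80402 and 67914 TMM-scaled CPM in the vehicle males and 36797, 48871 and 64020 in the BPA males. Every BPA male was below every vehicle male, and the fitted difference was -0.73 (log2, 95% interval -1.73 to 0.27, adjusted p = 0.64). Duox2, which supplies the peroxide, was 102.8, 54.1 and 72.2 in vehicle and 25.5, 38.3 and 56.7 TMM-scaled CPM in BPA. These groups overlap, and the difference was -0.91 (interval -1.72 to -0.11, adjusted p = 0.59). Without male BPA replicate 1, the library with testis transcripts, the Tg difference was -0.58 and that of Duox2 -0.70. Iyd was 330.0, 356.2 and 381.2 in vehicle and 271.4, 314.4 and 315.1 in BPA, without overlap, a difference of -0.23 (interval -0.54 to 0.09). For Tshr, Slc5a5, Pax8, Nkx2-1 and Foxe1 the differences lay between -0.19 and 0.24.

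In females the Tg order was the opposite. Tg was 47152, 27392 and 28405 TMM-scaled CPM in vehicle and 52361, 47235 and 54510 in BPA. The groups overlapped in plain CPM (lowest BPA 48957, highest vehicle 50683). Once TMM-scaled, every BPA female was above every vehicle female, though the lowest of the former and the highest of the latter were nearly equal. The difference was 0.54 (log2, 95% interval -0.12 to 1.21, adjusted p = 0.43). Nkx2-1 was 230.9, 149.6 and 134.1 in vehicle and 290.9, 309.6 and 324.5 TMM-scaled CPM in BPA. All 3 BPA females were higher, by 0.81 (interval 0.21 to 1.40, adjusted p = 0.33). Foxe1 was 857.5, 498.3 and 576.6 in vehicle and 1145, 905.6 and 1037 in BPA, again without overlap, with a difference of 0.64 (interval 0.09 to 1.18, adjusted p = 0.34). Pax8 was 265.9, 323.4 and 353.1 in vehicle and 438.5, 393.5 and 689.7 in BPA, a difference of 0.65 (interval 0.10 to 1.20, adjusted p = 0.34). Iyd was lower in all 3 BPA females, at 312.0, 374.8 and 298.6 against 434.1, 467.7 and 466.0, by -0.51 (interval -1.04 to 0.02, adjusted p = 0.38). Tshr differed by 0.34 without overlap, Duox2 by -0.08 and Slc5a5 by -0.77 with an interval from -2.88 to 1.34.

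None of the 8 genes passed an adjusted p of 0.05 for BPA, in males, in females or with both sexes together. Neither did any gene of the table: 0% of 11119 genes were called in males, 0% of 11127 in females and 0% of 12003 in both. At an unadjusted p under 0.05 there were 1 of the 8 in males, against 8.23% of all genes, and 3 in females, against 13.4%. DESeq2 called none of the 8 in either sex, and 16 and 223 genes in all. Groups that do not overlap were also common among all genes: 2 of the 8 in males against 9.82% of genes, and 6 of the 8 in females against 14.5%. The female result rested on 1 library. Without female vehicle replicate 1, whose Tg, Nkx2-1 and Foxe1 were the highest of its group, 3 of the 8 genes passed, by edgeR's test: Tg at 0.86 (adjusted p = 0.035), Nkx2-1 at 1.10 (adjusted p = 0.029) and Foxe1 at 0.92 (adjusted p = 0.026), together with 1119 genes of the table. The vehicle group is then replicates 2 and 3, the 2 libraries with the most fat markers; without replicate 2 or replicate 3 in turn, Tg stood at 0.42 both times and none of the 8 passed. Without female vehicle replicates 1 and 2 together, both with testis transcripts, Nkx2-1 passed at 1.21 (adjusted p = 0.044) among 2229 genes of the table; the 1 vehicle female left, the one with the most fat markers, is then assumed to vary like the other groups. With both sexes together Nkx2-1 differed by 0.47 (interval 0.13 to 0.81), Foxe1 by 0.43 (0.11 to 0.74) and Iyd by -0.36 (-0.65 to -0.07), with adjusted p between 0.43 and 0.45; without female vehicle replicate 1, Nkx2-1 at 0.60 and Foxe1 at 0.55 passed (adjusted p = 0.039 and 0.034). They also passed when the 3 libraries with over 1000 CPM of testis transcripts were left out together, at 0.70 and 0.57 (adjusted p = 0.024 and 0.033).

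Mix was set against the same vehicle libraries. In males Tg was 71328, 60071 and 81357 TMM-scaled CPM under Mix, overlapping vehicle, a difference of -0.25 (interval -1.25 to 0.75). Foxe1 was 933.1, 958.2 and 961.1 under Mix against 820.2, 692.6 and 619.1, higher in all 3 rats, by 0.41 (interval 0.00 to 0.82, adjusted p = 0.92). Iyd was lower in all 3, at 319.9, 322.2 and 324.5, by -0.15 (interval -0.47 to 0.16). Tshr was 84.0, 117.5 and 90.2 against 198.1, 110.7 and 108.9, a difference of -0.52 (interval -1.11 to 0.06) with overlapping groups. Slc5a5, Duox2, Pax8 and Nkx2-1 differed by 0.42, -0.12, 0.23 and 0.24. Of the 12 counts of Slc26a4, 1 and 2 were in a pair of male Mix libraries, 3 and 5 in a pair of female Mix libraries and 1 in female vehicle replicate 1, too few for a comparison.

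In females Tg was 73381, 53656 and 67678 TMM-scaled CPM under Mix, all above the 3 vehicle females, with the largest female difference of the 8 genes, 0.86 (log2, 95% interval 0.20 to 1.53, adjusted p = 0.13). Pax8 was 385.3, 362.4 and 361.3, just above the highest vehicle library, with a difference of 0.18 (interval -0.37 to 0.73). Foxe1 was 693.6, 588.4 and 615.2, inside the vehicle range, and Nkx2-1 was 233.3, 234.0 and 146.1, so the high values of the BPA females were not seen under Mix. Iyd was 321.0, 453.3 and 252.4, a difference of -0.47 (interval -1.01 to 0.06), and Slc5a5 114.9, 18.1 and 201.3. Tshr and Duox2 differed by -0.04 and 0.07. Ribosomal RNA rows took 11.7% to 23.7% of counts in the Mix females and 0.66% to 3.25% in the vehicle females. This share thus separates the same groups as treatment, and the 2 cannot be told apart in these females. With the share as covariate the fitted Iyd and Tshr differences turned in sign.

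**Figure D3:**
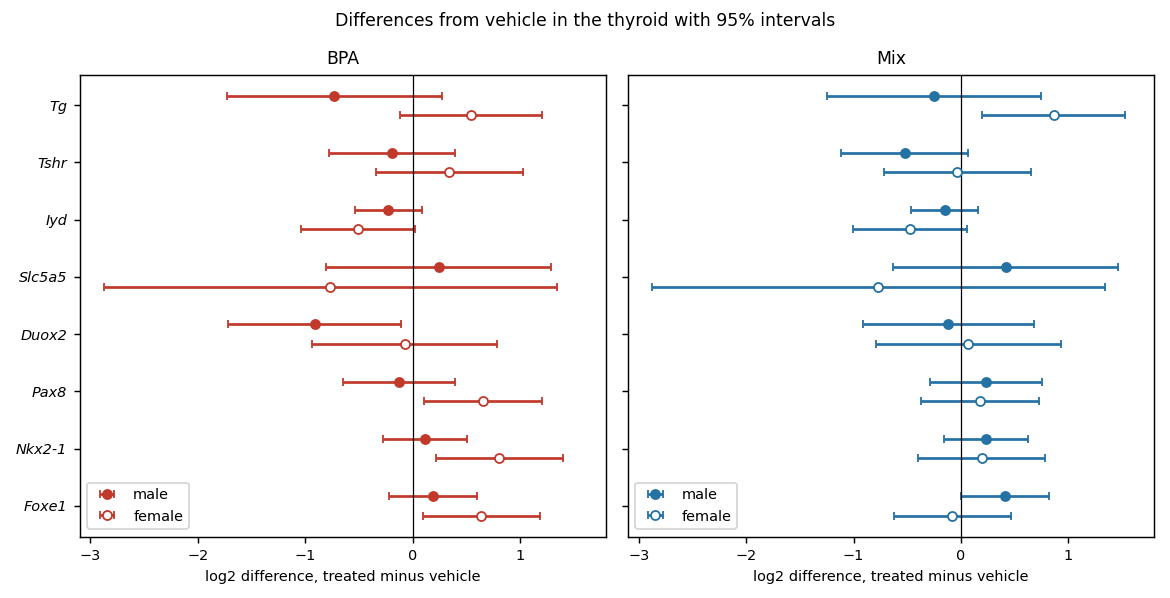
Log2 difference from vehicle with its 95% interval for the 8 genes tested in thyroid, BPA on the left and Mix on the right, filled points for males and open points for females (3 libraries a group). The intervals of female Slc5a5 reach to -2.88, and Tg sits at -0.73 in BPA males and at 0.54 in BPA females.

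None of the 8 genes was called for Mix in either sex or in both. The table as a whole had 0% of 11119 genes called in males and 0.00899% in females, which is 1 gene, Rbp4, the carrier of retinol in blood (-2.85, SE 0.30, adjusted p = 0.023). With both sexes together 2.18% of 12003 genes were called. Of the 8 genes, 1 in each sex had an unadjusted p under 0.05, against 4.96% of all genes in males and 23% in females. Groups did not overlap for 2 of the 8 in males (15.5% of all genes) and 2 in females (28.9%). DESeq2 called Tg in females (0.89, adjusted p = 0.0086), and edgeR did so without female vehicle replicate 1 (1.23, adjusted p = 0.0073), where 2093 genes of the table passed. Without female vehicle replicate 2 or 3 the Tg difference was 0.74 both times (adjusted p = 0.36 and 0.25). Without female vehicle replicates 1 and 2 together it was 1.18 (adjusted p = 0.020), and 2949 genes passed.

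Mix and BPA were also compared directly, on separate animals. In females Foxe1, Nkx2-1 and Pax8, the 3 transcription factors, were each lower in every Mix rat than in every BPA rat, by -0.72 (interval -1.26 to -0.17), -0.61 (-1.20 to -0.02) and -0.47 (-1.02 to 0.08), with adjusted p between 0.83 and 0.90; the groups of 19.1% of all genes did not overlap there, and 5.84% had an unadjusted p under 0.05. In males Duox2 was higher under Mix by 0.80 (interval -0.01 to 1.60, adjusted p = 0.36) with overlapping groups, and Foxe1 and Iyd did not overlap, nor did 14.3% of all genes, with 13.8% at an unadjusted p under 0.05. None of the 8 was called: 0% of genes passed in males, 0% in females and 0.00833% in both sexes together, which is Pnisr, which encodes a serine/arginine-rich protein (1.24, SE 0.17, adjusted p = 0.023). Intervals for the 8 genes reached from -0.92 to 1.60 in males and from -2.10 to 2.10 in females, both ends in females being Slc5a5, so differences of such sizes between the BPA and Mix rats cannot be told from 0 here.

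The sexes were compared under vehicle. Tg was lower in each of the 3 females (47152, 27392 and 28405 TMM-scaled CPM) than in each of the 3 males (102759, 80402 and 67914), by -1.30 on the log2 scale (interval -1.98 to -0.63, adjusted p = 0.33); the other 7 genes differed by -0.74 (Duox2) to 0.34 (Iyd). No gene was called by edgeR, 0% of 12003, with 10.5% of genes at an unadjusted p under 0.05. DESeq2 called Tg (-1.22, adjusted p = 0.00018), and so did edgeR without female vehicle replicate 1 (-1.59, adjusted p = 0.011), while without replicate 2 or 3 it stood at -1.15 and -1.12. With the 3 libraries rich in testis transcripts left out it was -1.58 (adjusted p = 0.011). The sexes of the vehicle rats also differ in the fat and testis transcripts given above, and the part of these in the Tg difference was not tested.

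The response to BPA was set between the sexes as an interaction. For Tg the female minus male difference of BPA minus vehicle was 1.37 (interval 0.43 to 2.32, adjusted p = 0.23), for Pax8 0.88 (0.14 to 1.61, adjusted p = 0.24) and for Nkx2-1 0.80 (0.12 to 1.48, adjusted p = 0.24); for Mix, Tg gave 1.19 (0.25 to 2.13, adjusted p = 0.49). None of the 8 genes was called, nor was any gene of the table, 0% of 12003 for BPA and 0% for Mix; at an unadjusted p under 0.05 there were 3 of the 8 for BPA (17% of all genes) and 1 for Mix (8.60%). DESeq2 called Tg for BPA (1.25, adjusted p = 0.025). Without female vehicle replicate 1 edgeR called Tg (1.66, adjusted p = 0.033) and Nkx2-1 (1.06, adjusted p = 0.048). Without the 3 libraries rich in testis transcripts Tg passed for both BPA (1.47, adjusted p = 0.041) and Mix (1.46, adjusted p = 0.040). Under treatment the sexes lay closer in Tg than under vehicle: 36797 to 64020 TMM-scaled CPM in BPA males and 47235 to 54510 in BPA females, and 60071 to 81357 in Mix males and 53656 to 73381 in Mix females.

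A pair of wider lists of the pathway was read beside the 8 genes. Of the 27 other follicular cell genes in the table (among them Duox1, the deiodinase Dio1 and the cathepsins that release hormone), 25 were tested over both sexes, and of the 17 genes of TSH receptor signalling 15 were. No gene of either list passed in any of the 12 thyroid comparisons. The medians of the follicular list were -0.23 in BPA males, where all genes had 0.07, 0.31 in BPA females (0.03), 0.01 in Mix males (-0.00) and 0.21 in Mix females (-0.03). For TSH receptor signalling they were 0.04, 0.38, 0.21 and 0.55. The 3 genes of each list with the smallest p are named for each comparison, and none of them passed. In BPA males these were, of the follicular list, Slc16a10, a carrier of aromatic amino acids and thyroid hormone, Lrp2, the apical receptor megalin, and Duox1, at -4.41, -0.63 and -0.71, and of the signalling list the cyclic AMP-responsive factors Creb1 and Crem at 2.10 and 0.72 and the G protein subunit Gna11 at -2.47 (adjusted p from 0.59 to 0.63). Slc16a10 was 1.60, 0.84 and 0.93 TMM-scaled CPM in vehicle and 0.10, 0 and 0 in BPA males, so its fitted size depends on the prior count. In Mix males they were Hhex, a follicular transcription factor, at 1.61 (SE 0.29, adjusted p = 0.52), the chloride channel Ano1 at 0.80 (adjusted p = 0.70) and Dio1 at 0.34, and Prkar2b, a regulatory subunit of protein kinase A, at -1.10 (adjusted p = 0.70), its catalytic partner Prkaca at 0.81 and Creb1 at 1.43. Hhex was 46.0, 40.3 and 58.2 TMM-scaled CPM in vehicle and 193.6, 140.3 and 110.1 in Mix. Prkar2b was 46.5, 61.8 and 73.5 in vehicle and 23.1, 31.7 and 30.9 in Mix; neither gene's groups overlapped. In BPA females they were the lysosomal cathepsins Ctsb and Ctsd at 0.84 and 0.60 and the secreted enzyme Gpx3 at -0.98, and Crem at -0.80, the adenylyl cyclase Adcy6 at -0.95 and Rgs2, a regulator of G protein signalling, at 1.58 (adjusted p from 0.33 to 0.38). In Mix females they were Ctsd at 0.74, the oxidase subunit Cyba at -0.74 and Lrp2 at 0.70, and Rgs2 at 2.54 (SE 0.64, adjusted p = 0.075), Crem at -0.65 and Adcy6 at -0.75. Rgs2 was 10.1, 1.76 and 4.13 in vehicle and 14.4, 43.0 and 39.5 in Mix.

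The other 8 thyroid comparisons gave related names. Mix against BPA in males had Slc16a10, Lrp2 and Hhex at 5.36, 0.80 and 0.98 and Prkar2b, Gna11 and Crem at -1.07, 2.90 and -0.89. In females it had the cathepsin Ctsl, Lrp2 and Epcam at -0.94, 0.60 and -0.39 and the phospholipase Plcb3, Rgs2 and the phosphodiesterase Pde4d at 1.36, 0.96 and 2.23. With both sexes together BPA had Gpx3, Krt18 and Tff3 at -0.63, 0.34 and -2.27 and Creb1, Prkar1a and Adcy6 at 2.10, 0.48 and -0.43. Mix had Ctsd, Ctsb and Ano1 at 0.44, 0.44 and 0.73 and Rgs2, Prkar2b and Creb1 at 1.34, -0.80 and 2.47, with adjusted p from 0.075 to 0.12. Mix against BPA had Lrp2, the oxidase maturation factor Duoxa1 and Slc16a10 at 0.74, 0.60 and 2.59 and Prkacb, Plcb3 and Rgs2 at 3.01, 1.56 and 0.82. The sex difference of BPA had Ctsb, Ctsd and Slc16a10 at 1.21, 0.90 and 5.68 and Crem, Rgs2 and Adcy6 at -1.41, 2.26 and -0.92. That of Mix had Hhex, Ctsd and Slc5a8 at -2.01, 0.80 and 2.80 and Rgs2, Prkacb and Adcy6 at 2.60, 7.35 and -0.84. Vehicle females against males had Ctsb, Hhex and Ctsd at -0.78, 1.11 and -0.64 and Prkacb, Adcy6 and Prkar2b at -6.07, 0.68 and 0.73. Prkacb, Gna11, Pde4d, Tff3, Plcb3 and Creb1 lay near the floor in thyroid, each at 0 in its lowest library. Their thyroid medians were 0.43, 0.89, 0.94, 0.66, 2.25 and 2.11 TMM-scaled CPM. Their fitted sizes, here and in the comparisons above, therefore depend on the prior count. For Prkacb in the sex difference of Mix the 95% interval was 1.57 to 13.13.

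Other cells of the tissue moved in the comparison with the most calls. With both sexes together, Mix minus vehicle, 3 of 9 C cell markers tested were higher (among them Chgb by 1.01 and Pcsk1 by 1.28). Of 3 parathyroid markers 1 was higher, the calcium receptor Casr by 1.79, while Pth itself, the parathyroid hormone, was not called: it was 12671 to 37020 CPM in Mix females, all below the 39054 to 41175 CPM of vehicle females, and 38852 to 55034 CPM in Mix males against 34886 to 45939 CPM in vehicle males. Of 9 fat genes 2 fell, Cidec by 1.24 and Retn by 2.32, and of 6 erythroid genes 1 fell, the globin Hbb by 1.52. The 8 follicular genes had a median of 0.12 in that comparison, where all genes had 0.03. The calls there were 262 in the table, 34 with the replicate block, 1519 by DESeq2 0 with the share of ribosomal RNA in the model and 3389 without the 3 libraries rich in testis transcripts. Single libraries also moved the count: it was 2117 without female vehicle replicate 1 and 777 without male BPA replicate 1. It was 35 without female vehicle replicate 3 or female BPA replicate 3, and 29, 20 and 12 without male BPA replicate 2, female Mix replicate 1 and female Mix replicate 2. It was 2 without male vehicle replicate 1 or male Mix replicate 2, 1 without male vehicle replicate 3 or male Mix replicate 3, and 0 without female vehicle replicate 2 or female Mix replicate 3. These genes are given as values beside the follicular genes and no more. In bulk tissue, fewer follicular cells and less RNA per follicular cell cannot be told apart.

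The 9 genes together took from 2.76% of counts in female vehicle replicate 3 to 10.7% in male vehicle replicate 1, nearly all of it Tg. Over the 18 thyroid libraries their summed level ran against the fat markers, as log2 values, with a Pearson r of -0.74 and a Spearman rho of -0.64. The relation weakened to -0.46 without the 2 libraries farthest from the median, female vehicle replicates 2 and 3, and it was -0.41 in the 9 males and -0.87 in the 9 females. Without Tg the sum of the other genes gave -0.47. For skeletal muscle markers, which reached 8396 CPM in female vehicle replicate 2 and 9958 CPM in female Mix replicate 3, the r was -0.27 (-0.13 in males and -0.26 in females). For C cells it was -0.38 (-0.40 and -0.14), for parathyroid -0.15 (-0.13 and -0.77) and for the share of ribosomal RNA 0.21 (-0.15 and 0.71). In females the sum thus fell with rising fat and parathyroid markers and rose with the share of ribosomal RNA. Without Tg the r was -0.38 for skeletal muscle, 0.35 for C cells, -0.20 for parathyroid and -0.175 for ribosomal RNA (-0.32 in females). The relations with C cells and ribosomal RNA thus turned in sign once Tg was left out. These 18 values come from 6 groups and are a description, with no test.

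**Figure D4:**
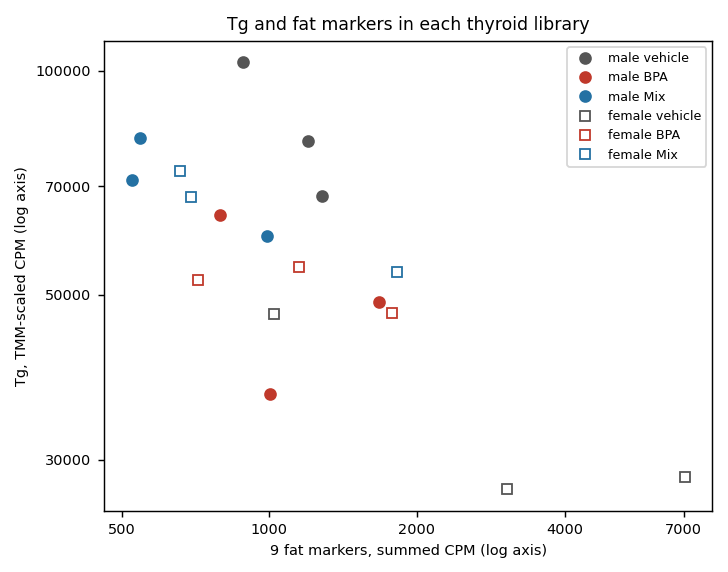
Tg (TMM-scaled CPM) against the summed CPM of 9 fat markers in the 18 thyroid libraries, both on log axes, with filled circles for males and open squares for females. Female vehicle replicates 2 and 3 lie alone at the lower right, at 27392 and 28405 for Tg and 3054 and 7034 CPM for fat.

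The genes did not rise and fall together as a block. After each group's mean was taken away, the 28 pairs of the 8 genes had a median Pearson r of 0.17 over the 18 libraries, from -0.72 to 0.89, and 19 of the 28 were positive. Tg and Foxe1 went together most closely (0.89), and Tg, Slc5a5, Duox2 and Foxe1 formed the pairs between 0.57 and 0.89. With the groups' means left in, Foxe1 had 0.39 with Tg, 0.35 with Slc5a5 and 0.30 with Duox2. Tg then had 0.39 with Slc5a5 and 0.67 with Duox2, and Slc5a5 had 0.57 with Duox2. Iyd and Slc5a5 ran against each other (-0.72). Nkx2-1 and Foxe1 had 0.47 within groups and 0.70 with the groups' means left in. All genes of a library share its depth and its make-up of cells.

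**Figure D5:**
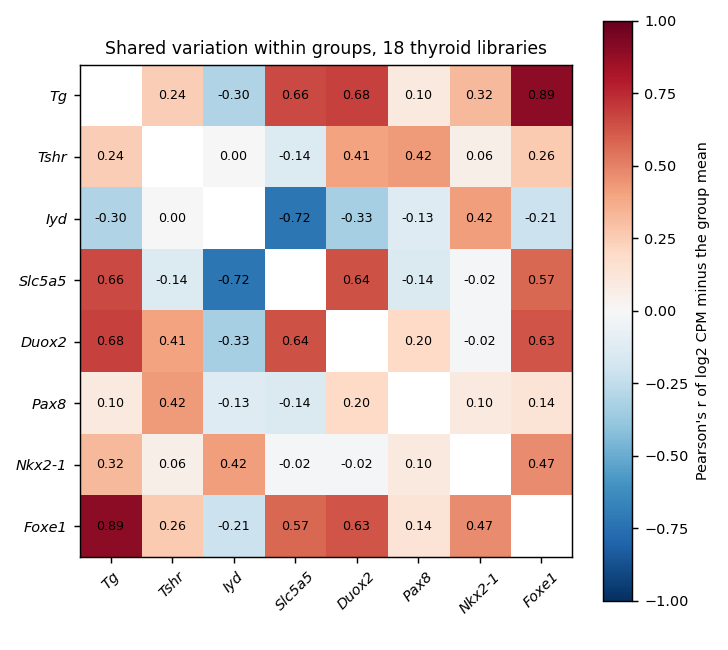
Pearson's r between the 8 genes' log2 CPM over the 18 thyroid libraries after subtraction of each group's mean; red is positive, blue negative, and the diagonal is blank. Tg with Foxe1 stands at 0.89 and Slc5a5 with Iyd at -0.72.

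Among 9896 other genes, those that went most closely with the mean of the 8 genes over the 18 thyroid libraries were Mmp15, a membrane-bound metalloproteinase (r = 0.79), Clstn1, a calsyntenin (0.79), Acsl5, an acyl-CoA synthetase (0.77), Elovl1, a fatty acid elongase (0.77), and Cnnm3 (0.76). They are the top of a ranking of 9896 genes over 18 libraries, and how high such values run by chance was not tested. Over all 70 libraries the mean was of all 9 genes, with the kidney gene Slc26a4 among them, and the measure is mostly a difference between organs. The genes closest to that mean were Ppp1r1b, a phosphatase inhibitor (0.95), Cyb561, a cytochrome of the b561 family (0.95), Kcnk16, a potassium channel (0.95), Slc35g2 (0.94) and Rab15, a small GTPase (0.94). Ppp1r1b was at 500.4 to 1444 CPM in thyroid and at most 103.5 CPM in any other organ, a kidney library. Clstn1, in contrast, was at 177 to 384 CPM in thyroid and 60.5 to 143.5 CPM in kidney, and Elovl1 was higher in kidney (107.0 to 265.9 CPM) than in thyroid (37.8 to 91.3 CPM).

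The genes that are also made in kidney were followed there under the same treatments. Iyd was 74.2 and 64.5 CPM in the 2 vehicle females and 108.6 and 93.3 in the 2 BPA females, a difference of 0.55 (interval 0.05 to 1.05, adjusted p = 0.27), and in males it was 96.6 to 125.9 CPM in vehicle and 107.2 to 124.7 in BPA, a fitted difference of 0.45 on TMM-scaled counts (interval 0.06 to 0.83, adjusted p = 0.18). In BPA females 3 of the 5 genes tested in kidney (Tg, Pax8 and Iyd) did not overlap vehicle in plain CPM, against 37.0% of all genes, and in Mix females the same 3, against 22.8%. Tg is counted here although it was a trace in kidney, with a median of 1.37 CPM. Female BPA kidney replicate 1, at 12.8 CPM of Tg, also held 14.7 CPM of Pth. In males 1 of the 5 did not overlap for BPA and 0 for Mix, where 16.7% of all genes did not. In thyroid the fitted Iyd difference for BPA was below 0 in both sexes. Pax8 passed in no comparison; in Mix females it was 100.4 to 175.3 CPM against 73.1 and 82.9 in vehicle, a difference of 0.85 (interval 0.25 to 1.45, adjusted p = 0.38). Slc26a4 was 81.2 to 112.3 CPM in vehicle males and 34.4 to 61.2 in BPA males, with a fitted difference of -0.54 (interval -1.27 to 0.18, adjusted p = 0.36). In plain CPM the groups did not overlap, which held for 41.9% of all genes in that comparison, and 21% had an unadjusted p under 0.05. Plain CPM counts ribosomal RNA rows in the total. Those rows took 16.3% to 37.1% of counts in BPA male kidneys and 1.69% to 3.47% in vehicle male kidneys. The part of this in the separation of Slc26a4 was not tested. In females its vehicle libraries stood at 39.8 and 200.996 CPM, so the direction hung on them: BPA differed by -0.58 with both, by -1.21 without the lower (adjusted p = 0.048) and by 0.56 without the higher (adjusted p = 0.45), where the 1 vehicle library left is assumed to vary like the other groups. None of the 5 genes tested in kidney was called: 0.136% of genes passed in BPA males, 0.0273% in Mix males, and 0% in BPA and in Mix females, where the unadjusted p was under 0.05 for 16.4% and 10.4% of genes. DESeq2 called 822, 97, 314 and 68 genes in these 4 comparisons.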

How the data were processed

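RNA was extracted with TRIzol from 5 organs and libraries were made with a QuantSeq 3′ kit, which reads the end of each transcript, per the labels' protocols. FastQC, Bowtie2, bedtools, edgeR and the build rn6 appear, with no version, in the submitters' processing notes. What the authors deposited is 1 table of counts, raw and whole at every value, with 17048 genes as rows and 70 libraries as columns, per its header; no row lacks a name, and the 9 symbols each occur once. How reads on overlapping genes or both strands were counted is not given in the sources used here.

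Libraries were grouped by sex, organ and treatment in the labels; no pair within a thyroid group was a near duplicate. Counts were filtered with filterByExpr, scaled with TMM and tested with edgeR 4.0.16 quasi-likelihood fits (R 4.3.3), each sex alone, both sexes jointly, and organs among vehicle rats; Benjamini-Hochberg adjustment covered every gene tested in a comparison, and a gene with an adjusted p under 0.05 is called. The 95% intervals are those of single genes. Organs of 1 rat share an animal code; over such pairs the libraries' deviations had a median correlation of 0.07, and the animal as a block changed no call of the 9 genes between organs. Plain and TMM-scaled CPM were computed from the counts, and depth limits low counts: 3 counts serve as the floor. Correlations use log2 CPM (prior count 2, or log2 of summed CPM plus 1). DESeq2 1.42.0, other scalings, no filter, the replicate block, ribosomal RNA rows and each library left out were alternatives; leaving out the 3 thyroid libraries rich in testis transcripts together was added after seeing the data. Permutation p-values planned for the correlations with the summed genes were computed and are not given, since the genes were chosen with results known. The scripts were tested on simulated data. The 9 genes, the lists and the tests were chosen with earlier results of these data known. Named are every one of the 8 or 9 genes in the comparisons, the 3 genes of each pathway list with the smallest p in each thyroid comparison, other-cell genes that passed, and the 5 genes most like the members in each of 2 sets of libraries. Values of some list genes are not reported here. No genome of build rn6 was used here; promoters are from RefSeq, GRCr8.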

Additional observations from a re-analysis of the deposited data

Results flagged for a closer look

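Tg under BPA was picked out because, in TMM-scaled CPM, the groups stood apart in opposite directions in the 2 sexes. The 3 BPA males were all below the 3 vehicle males, and the 3 BPA females all above the 3 vehicle females. In plain CPM the female groups overlapped: the lowest BPA female was 48957 and the highest vehicle female 50683. The share of all genes with such opposite separation was not computed. The difference between the sexes was tested as an interaction, on the same libraries by which Tg was picked. It was 1.37 on the log2 scale (95% interval 0.43 to 2.32), and its adjusted p was 0.23 by edgeR's quasi-likelihood test over 12003 genes and 0.025 by DESeq2, with a range of 0.025 to 0.41 over all alternatives. The fitted value stood between 1.16 and 1.66 when each female vehicle library was left out in turn. That range never leaves out both female vehicle replicates 2 and 3, the lowest in Tg. They held 3054 and 7034 CPM of fat markers, the most in thyroid. Male BPA replicate 1, the BPA male lowest in Tg, held 17738 CPM of testis transcripts. The part of these in the interaction was not tested. Groups of 3 were not searched for single outlying libraries.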

How the results depend on the processing

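The values of the 9 genes over all comparisons number 170, of which 50 passed the threshold. Under at least 1 alternative 54 of the 170 turned in sign, among them none of the 50, and 13 that had not passed did so; no call was lost. For the 68 that the text reports, a set narrowed after these counts were seen, the values that turned were the following. Nkx2-1 in BPA males and Duox2 in BPA females turned to -0.0043 and 0.0325 with total counts only. With the ribosomal RNA share as covariate, Duox2 and Pax8 in Mix males turned to 0.31 and -0.0197, and Iyd and Tshr in Mix females to 0.14 and 1.09; without ribosomal RNA rows that Tshr value was 0.0052. Scaled to Pax8, Nkx2-1 and Foxe1, Tg and Tshr in BPA females turned to -0.10 and -0.37, and Iyd in BPA rats of both sexes passed at -0.77 (adjusted p = 0.045). These 3 scaling genes are themselves among the 9 genes, and each had a fitted difference above 0 in BPA females. Nkx2-1 and Foxe1 also did with both sexes together. Dividing by genes that are higher lowers the rest by construction, so these turns and this call are not separate support. Without the 3 thyroid libraries over 1000 CPM of testis transcripts, an alternative chosen after seeing the data that leaves 1 vehicle female, Slc5a5 turned to 0.67 (BPA) and 0.64 (Mix) in females, and in Mix females Duox2 to -0.15, Foxe1 to 0.13 and Tshr to 0.0208. Slc26a4 in Mix female kidney turned to 0.32 with the replicate block. The correlation of the summed genes with parathyroid markers was 0.0051 without the 2 farthest libraries, and that with ribosomal RNA -0.15 in males. The cause was not tested. With each library left out in turn, signs turned within these ranges: BPA males, Nkx2-1 -0.0155 to 0.24, Slc5a5 -0.20 to 0.52, Tshr -0.35 to 0.13; Mix males, Duox2 -0.36 to 0.16; BPA females, Duox2 -0.27 to 0.26, Slc5a5 -1.17 to 0.73; Mix females, Duox2 -0.23 to 0.32, Foxe1 -0.22 to 0.25, Slc5a5 -1.52 to 0.77, Tshr -0.40 to 0.17; kidney, Pax8 in Mix males -0.21 to 0.26, Slc26a4 in Mix males -0.19 to 0.43, in BPA females -1.21 to 0.56 and in Mix females -0.70 to 1.07.

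The number of the 8 genes called in thyroid, 0 throughout, became 1 with DESeq2 for Mix in females, for the sex difference of BPA and for vehicle females against males. Leaving out libraries gave 0 to 3 for BPA in females, 0 to 1 for Mix in females, 0 to 2 for BPA in both sexes, 0 to 2 for the sex difference of BPA and 0 to 1 for vehicle, in each case through female vehicle replicate 1. Without the 3 libraries rich in testis transcripts it was 1 for BPA and 1 for Mix in females, 2 for BPA in both sexes, 1 for each sex difference and 1 for vehicle.

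Over all alternatives, adjusted p ran from 0.035 to 0.86 for Tg, 0.029 to 0.65 for Nkx2-1 and 0.026 to 0.65 for Foxe1 in BPA females; from 0.0073 to 1 for Tg in Mix females; from 0.024 to 0.69 for Nkx2-1 and 0.033 to 0.69 for Foxe1 in BPA rats of both sexes; from 0.00018 to 0.99 for Tg between vehicle sexes; from 0.040 to 1 for Tg and the sex difference of Mix; and from 0.048 to 0.82 for Slc26a4 in BPA female kidney.

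Calls over all genes moved more. DESeq2 gave 16 (BPA), 35 (Mix) and 114 (Mix against BPA) in male thyroid; 223, 1386 and 40 in female; 78, 1519 and 284 in both; 237 and 54 for the sex differences of BPA and Mix; 75 higher and 36 lower in vehicle females than males; and 822 and 97 in male, 314 and 68 in female kidney, for BPA and Mix. RLE and no filter gave 2 and 1 for BPA in female thyroid; no filter gave 191 and 13 in male and 258 and 72 in female kidney; total counts gave 880 for BPA in male kidney. Without the 3 libraries rich in testis transcripts there were 2229 (BPA) and 2949 (Mix) in female thyroid; 1562, 3389 and 31 (Mix against BPA) in both sexes; 2190 and 1780 for the sex differences; and 2145 for vehicle sex. The ribosomal RNA covariate gave 0 for Mix in female thyroid, 0 for Mix in both sexes, 0 for Mix against BPA, 1 and 5 in male and 997 and 404 in female kidney. Same-numbered rats of different treatments did not deviate together (median correlation -0.06 in male and -0.07 in female thyroid and -0.06 in female kidney). In male kidney the median was 0.12, against -0.08 for different numbers, with 6 of 9 pairs over 0.1. Not every pair was, so the numbers were not taken as pairs; the replicate block gave 3 for Mix in female thyroid, 34 for Mix in both sexes and 168 and 26 in male kidney. Leaving out libraries gave 0 to 1119 for BPA and 0 to 2093 for Mix in females; 0 to 481, 0 to 2117 and 0 to 5 in both sexes; 0 to 725 and 0 to 396 for the sex differences; 0 to 868 for vehicle sex; 0 to 886 and 2 to 19 in male and 0 to 807 and 0 to 329 in female kidney. For Mix in both sexes the highest was without female vehicle replicate 1 and the lowest, 0, without female vehicle replicate 2 or female Mix replicate 3. Total counts moved the median of all genes from 0.03 to 0.13 for BPA in females. The 3 libraries a group limit what can pass.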

Other observations

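Of 25 other follicular cell genes tested in thyroid, 9 were lower in both female vehicle replicates 2 and 3, the libraries richest in fat markers, than in each of the other 16 thyroid libraries, 1 (Gpx3) was higher in both and 15 were neither, a count chosen after the values were seen. The share of all genes that stood apart in this way was not computed, so the count is not read as a trait of follicular genes. Duox1, the partner of Duox2 as a source of peroxide, was 71.0, 16.6 and 7.02 TMM-scaled CPM in female vehicle replicates 1, 2 and 3 and at least 30.5 in the other 15 thyroid libraries. Slc5a8, an apical carrier of monocarboxylates, was 12.8, 2.01 and 0, and at least 9.76 elsewhere in thyroid. Dio1 was 624.5, 193.4 and 190.9, with 184.0 in female Mix replicate 2. Gpx3 was 856.2 and 861.8 in the libraries richest in fat markers and at most 472.4 in the other 16, and Epcam and Krt8 lay within the range of the others. Pax8 in the 3 vehicle libraries was 265.9, 323.4 and 353.1, so it did not share the order.

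Dio2, the deiodinase that activates thyroxine in many tissues, was at most 1.96 TMM-scaled CPM in any thyroid library.

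Traces of Tg were counted outside the thyroid. Of the 52 libraries of other organs, 51 held Tg, with a median of 1.38 CPM, and 6 were above 10 CPM. The highest was a liver of a Mix female at 46.7 CPM, with 2.02 CPM of Pth, followed by an ovary of a Mix female at 22.1 CPM, with 11.9 CPM of Pth, and a testis of a vehicle male at 22 CPM, with 15.2 CPM of Pth.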
